A study of Homo sapiens with 24 samples.

Results

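HepG2 is an established human liver cancer cell line. The D312A libraries came from a stable HepG2 line made by viral transduction to overexpress METTL14 carrying the substitution D312A, and the WT libraries from a line made in the same way with wild-type METTL14. Both lines were selected with puromycin, and the labels name no removal of the cells' own METTL14. Poly(A) RNA was fragmented, immunoprecipitated with an anti-m6A antibody and sequenced in 3 biological replicates of each line. The 6 immunoprecipitated libraries D312A replicates 1 to 3 and WT replicates 1 to 3 were set against each other, out of 24 samples in the series, which also holds R298P and EGFP lines and input libraries. The authors deposited 1 list of peak summits per immunoprecipitated library, where a summit is the position of highest enrichment in a called peak and carries a −log10 value, read here as −log10 of a p or q value. The 6 lists held 75907 of the 155075 summits of all 12 lists. Summits of the 6 lists that lay within 100 nt of each other were merged, which gave 26184 regions, and a library was taken to hold a region where 1 or more of its summits fell there.

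N6-methyladenosine (m6A) is an internal modification of mRNA that is written co-transcriptionally by a complex around METTL3, the catalytic subunit, and METTL14, its partner, which carries no catalytic activity of its own and helps to hold the RNA. The complex also contains WTAP and the scaffold VIRMA. Reader proteins of the YTH family bind the mark and affect the decay, translation and splicing of the transcript, and FTO and ALKBH5 can remove it. The comparison asks which sites gain or lose the mark when the added METTL14 carries D312A in place of the wild-type residue.

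Of the 26184 regions, 31 were gained in D312A, that is present in 3 of 3 D312A and 0 of 3 WT libraries, which is 0.118% of all regions. A further 343 regions, or 1.31% of all regions, were lost, that is present in 0 of 3 D312A and 3 of 3 WT libraries. Gained regions fell in 31 genes (0.346% of genes with a summit) and lost regions in 305 (3.4%), with 2 genes in both counts. The large majority of sites found in every WT library were therefore also found in D312A: of 7756 regions in 3 of 3 WT libraries, 4558 were in 3 D312A libraries, 1891 in 2, 964 in 1 and 343, or 4.42%, in 0. Seen from the other side, 5323 regions were in 3 of 3 D312A libraries and 0.582% of them were in 0 WT libraries. Just outside the definition, 1262 regions were in 0 D312A and 2 WT libraries, 309 were in 2 D312A and 0 WT libraries, and 166 were in 3 D312A libraries and 1 WT library. Presence in single regions was counted and not tested, since an exact permutation test of 3 libraries against 3 cannot give a p below 0.1. Gained and lost regions together made up 12.6% of the 2963 regions found in exactly 3 of the 6 libraries. Of the 20 ways to pick 3 of 6 libraries, 2 are all D312A or all WT, and the share was not tested against this.

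**Figure D1:**
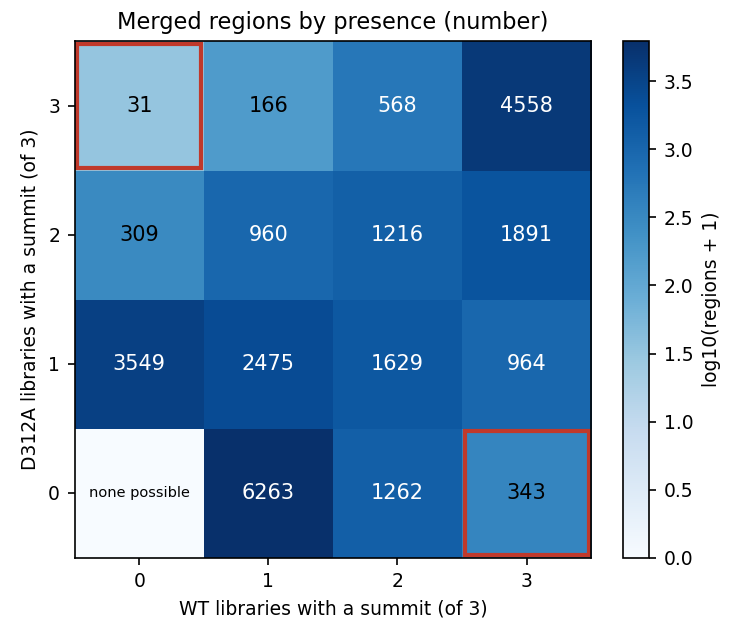
Number of merged regions by how many D312A libraries (vertical axis, 0 to 3) and how many WT libraries (horizontal axis, 0 to 3) held a summit there, with darker blue for more regions on a log10 scale. The outlined cells are the 31 gained regions at the top left and the 343 lost regions at the bottom right, beside 4558 regions found in all 6 libraries.

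The lists differed in length, which bears on every count of regions. D312A lists held 12357, 8669 and 12350 summits in replicates 1, 2 and 3, against 14797, 12620 and 15114 in WT. For replicate numbers 1, 2 and 3 the difference of D312A minus WT was -2440, -3951 and -2764 summits, and every D312A list was shorter than every WT list. The difference of the means was -3052 summits, the largest that these 6 values can give in either direction (exact permutation test over 20 assignments, two-sided, p = 0.1, the smallest p possible). Without D312A replicate 2, the shortest list, the difference was -1824 (exact permutation test, p = 0.2). The number of genes with a summit was 5455 ± 741 in D312A and 6369 ± 413 in WT (SD, n = 3 each). With each list reduced to its 8669 best summits, 82 regions were gained (0.457% of regions) and 132 lost (0.736%). Only 20 of the 31 gained and 73 of the 343 lost regions were among these. How many reads stand behind a list is unknown, so a shorter list and fewer methylated sites cannot be told apart here.

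The libraries also differed in how many summits they placed in a few transcripts that liver cells make in large amounts. Summits in the 18 secreted liver proteins that held any numbered 142, 146 and 4 in D312A replicates 1, 2 and 3, against 163, 44 and 34 in WT. FN1, which encodes fibronectin, alone held 41, 40 and 0 summits in D312A and 39, 9 and 7 in WT. APOB, the protein of very low-density lipoprotein, held 31, 36 and 0 in D312A and 39, 9 and 4 in WT. D312A replicates 1 and 2 and WT replicate 1 were thus high, and D312A replicate 3 was below every WT library. Ribosomal protein genes held 32, 36 and 2 summits in D312A and 43, 7 and 7 in WT, and glycolysis genes 21, 25 and 2 in D312A and 29, 4 and 6 in WT. The mitochondrial genome held 25, 31 and 1 summits in D312A and 33, 3 and 3 in WT. These lists held 0 gained and 0 lost regions, and the part of this difference in other results was not tested.

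**Figure D2:**
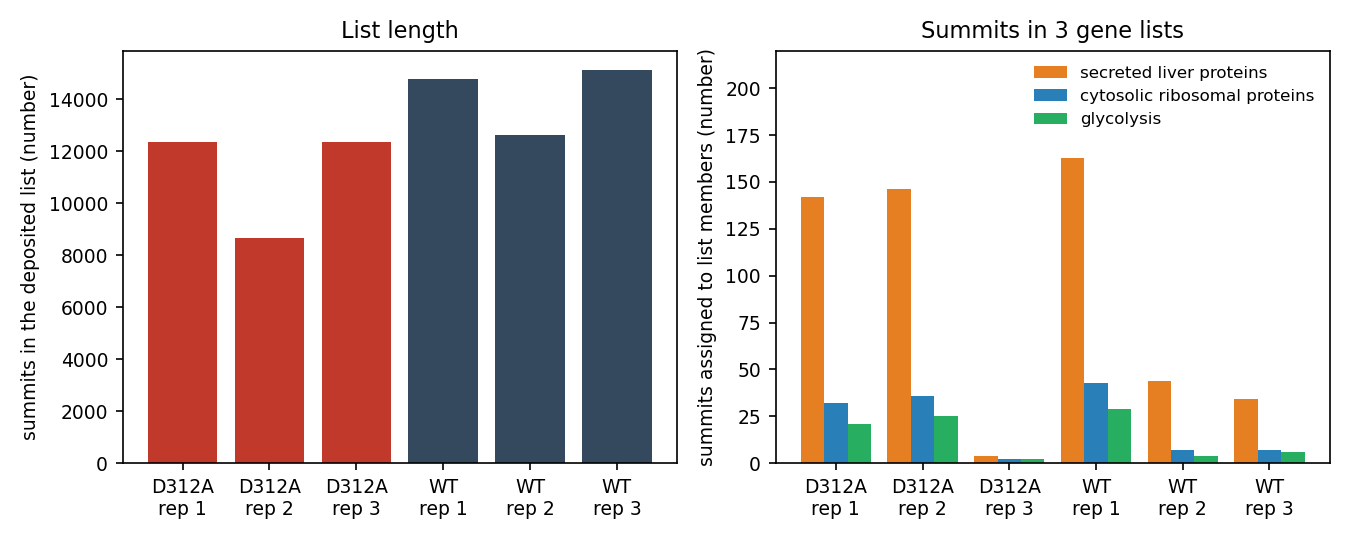
Left, number of summits in each deposited list for the 3 D312A libraries (red) and the 3 WT libraries (dark blue). Right, number of summits per library in members of 3 gene lists, where D312A replicate 3 held 4 summits in secreted liver proteins and D312A replicate 2, with the shortest list, held 146.

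Sequence was at hand for the 5 gained or lost regions whose midpoint fell within the RefSeq window of their own gene's start, which runs from 250 bases before to 50 bases after it. The 5 regions are shown because at these places the summit can be read on the letters. Each stretch reaches up to 60 bases to either side of the region's midpoint and stops at the edge of the window. It is given 5′ to 3′ on the gene's strand in build GRCh38.p14, with the bases from the first to the last summit of the region in capitals. For LOC107986011 the region runs past the edge of the window, so its last 8 bases are not shown and the capitals hold the other 16. The gained region is that of CYLD, a deubiquitinase (chr16:50742075-50742195, plus strand), and the lost ones are those of AHDC1 (chr1:27604095-27604168, minus strand), HRC, a calcium-binding protein of muscle (chr19:49155347-49155436, minus strand), LOC107986011 (chr3:24522345-24522408, minus strand) and CNKSR3 (chr6:154510247-154510367, minus strand).
CYLD: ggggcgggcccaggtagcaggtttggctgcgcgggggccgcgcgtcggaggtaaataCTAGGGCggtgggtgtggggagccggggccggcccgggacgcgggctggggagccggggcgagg
AHDC1: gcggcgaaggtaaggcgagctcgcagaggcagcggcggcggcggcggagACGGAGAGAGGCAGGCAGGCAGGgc
HRC: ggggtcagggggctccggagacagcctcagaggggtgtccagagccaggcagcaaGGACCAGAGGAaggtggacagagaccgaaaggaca
LOC107986011: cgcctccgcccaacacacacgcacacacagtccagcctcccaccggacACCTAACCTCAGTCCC
CNKSR3: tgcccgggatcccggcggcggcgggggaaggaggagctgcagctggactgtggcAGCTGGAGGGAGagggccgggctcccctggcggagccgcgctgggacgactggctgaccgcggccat

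The complex is known to favour an adenosine followed by a cytidine, most often after a guanosine. The motif GGACA, the motif GGACC and the motif GGACT, which cannot overlap each other, were searched on both strands of these stretches. The HRC stretch held 3 of them on the gene's strand, with a GGACC at the start of the capitals, and 1 on the opposite strand. CNKSR3 held 1 and LOC107986011 held 1 on the gene's strand, and LOC107986011 held 2 on the opposite strand. The stretches of CYLD and AHDC1 held 0 on either strand. Among all 35116 RefSeq windows, the same stretch held at least 1 of the motifs on the gene's strand in 23.8% for HRC, 29.1% for CNKSR3 and 17.96% for LOC107986011. The region midpoint lay 36, 20 and 46 bases after the start site that defines the window for AHDC1, HRC and LOC107986011. For CYLD and CNKSR3 it lay 21 and 61 bases before that start, though within the gene span. The CNKSR3 stretch thus lay wholly before it, and whether letters before a start are in the RNA was not tested. A match is a description of the letters and names no methylated base.

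Among the gained regions, the best ranked was that of SNRNP35, a component of the minor spliceosome (hg38, chromosome 12, 123465931 to 123465937), with summit values of 37.8, 23.6 and 46.4 in D312A replicates 1, 2 and 3 and no summit in WT. The nearest WT summit lay 169 nt away. MOCS3, an activating enzyme of molybdenum cofactor synthesis (chromosome 20, 50959760 to 50959776), followed with values of 26.6, 25.0 and 29.5 in D312A and with the nearest WT summit 444 nt away. PBDC1 (chromosome X, 76178102 to 76178105), RSBN1 (chromosome 1, 113766189 to 113766227) and SEL1L, an adaptor of the degradation of misfolded proteins (chromosome 14, 81476911 to 81476916), had a WT summit 144, 160 and 182 nt away. NOL4L, TOR1AIP2 and RGL1 came next, with WT summits at 146, 150 and 158 nt. MED16, a Mediator subunit (chromosome 19, 867983 to 867987), and KMT2C, a histone H3 lysine methyltransferase (chromosome 7, 152136819 to 152136834), had values of 15.5, 18.8 and 16.9, and of 13.4, 18.7 and 14.7, in D312A. In all these genes a site of WT therefore lay near the gained one. Over the 31 gained regions the median distance to the nearest WT summit was 172 nt and the shortest was 106 nt. For 18 regions it was at most 200 nt, and for 23 at most 500 nt. With merging within 200 nt, 13 of the 31 were still called, and among the 10 regions named here those were MOCS3 and KMT2C. The KMT2C region was present in 0 R298P libraries and 1 EGFP library.

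The lost regions lay farther from sites of the other line. The median distance to the nearest D312A summit was 679 nt, and 189 of the 343 had no D312A summit within 500 nt. The best ranked lay in UBALD1 (chromosome 16, 4609590 to 4609594), with values of 28.4, 29.5 and 20.4 in WT replicates 1, 2 and 3 and a D312A summit 104 nt away. WDPCP, a planar cell polarity effector (chromosome 2, 63404328 to 63404338), had values of 20.3, 17.7 and 19.5 in WT and no D312A summit closer than 149726 nt. PARD6G, a cell polarity protein (chromosome 18, 80157879 to 80157897), had 21.9, 14.9 and 21.6 in WT and a D312A summit 1645 nt away. FTO, an eraser of m6A, had a region deep in its long span (chromosome 16, 53826322 to 53826323) with values of 17.7, 18.7 and 19.7 in WT, and the nearest D312A summit lay 333989 nt away. That region was present in 3 EGFP and 2 R298P libraries. In WDPCP and FTO, D312A thus held no site in the vicinity.

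BHLHA15, a transcription factor of secretory cells (chromosome 7, 98213218 to 98213230), POLD4, a subunit of DNA polymerase delta, GOLM1, a Golgi membrane protein raised in liver cancer (chromosome 9, 86028162 to 86028169), CORO2B, a coronin, and INF2, a formin that assembles actin (chromosome 14, 104704304 to 104704329), followed in rank. INF2 had values of 21.8, 15.0 and 17.4 in WT and no D312A summit within 10123 nt, and GOLM1 had 16.4, 16.1 and 23.9 in WT and none within 86914 nt. EXTL3, FAM20C, ZNF318, MPHOSPH10, DAAM1, a formin of planar cell polarity, and SPRY4, an inhibitor of receptor tyrosine kinase signalling, completed the 15 best ranked. The regions of BHLHA15, PARD6G and INF2 were present in 3 EGFP and 0 R298P libraries, so they were missing from both substitution lines. All 15 regions were still called with lists of equal length, but this follows from their ranks. Each had a summit among the 8669 best of every WT list, and shorter D312A lists cannot add a summit. With merging within 200 nt, 11 of the 15 were still called. Those not called with merging within 200 nt lay in UBALD1, POLD4, CORO2B and FAM20C, each with a D312A summit between 104 and 113 nt away.

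Among regions in 3 of 3 WT libraries, the lost ones were mostly weak sites in WT. Ranked by the mean position of their summits in the WT lists, the regions in 3 of 3 WT libraries were split into 5 equal parts. In the best part 1 of 1552 regions was lost, or 0.0644%, and 91.7% were in all 3 D312A libraries. In the middle part 55 of 1551 were lost, or 3.55%, and in the weakest 174, or 11.2%, with 28.2% in all 3 D312A libraries. With lists of equal length, 0 of 917, 5 of 916 and 100 of 916 were lost in the best, middle and weakest part. The median value of lost regions in WT was 12.5, against 20.1 for regions in all 6 libraries and 17.1 for all regions in 3 of 3 WT libraries. Over all merged regions with a WT summit it was also 12.5.

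**Figure D3:**
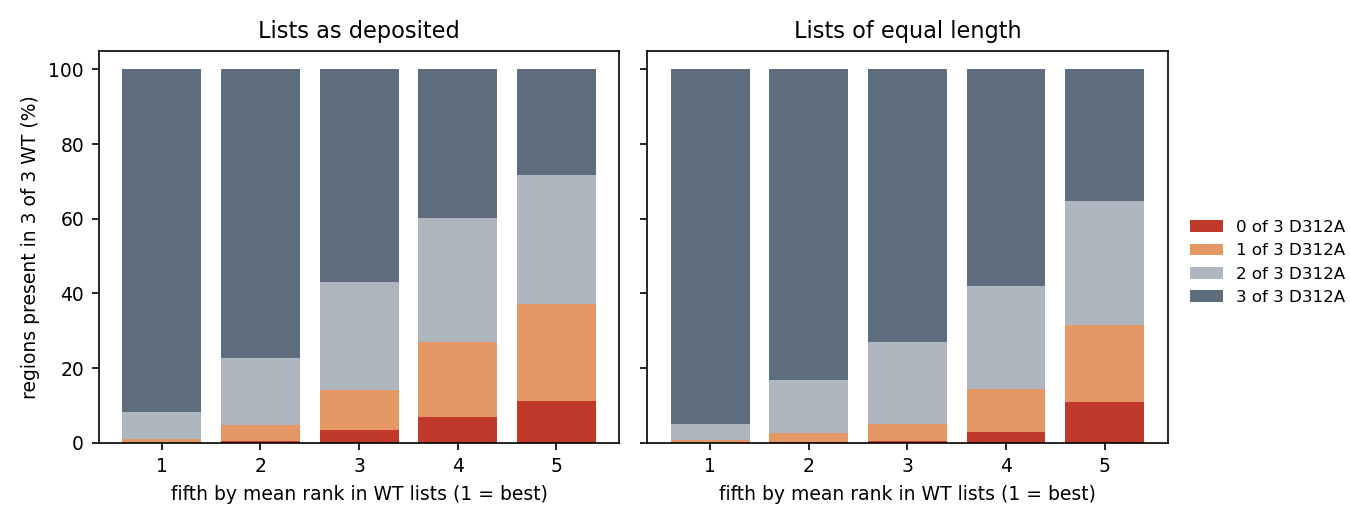
Regions present in 3 of 3 WT libraries, in 5 equal parts by their mean rank in the WT lists (1 is best), with the percent of each part found in 0, 1, 2 or 3 D312A libraries, for lists as deposited (left) and of equal length (right). The share in 0 D312A libraries was 0.0644% in the best and 11.2% in the weakest part on the left.

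The R298P and EGFP libraries, which played no part in choosing the regions, were then read at the same places. A region was counted in such a library with a summit within 100 nt of it. Of the 343 lost regions, 119 were in 0 R298P libraries, 109 in 1, 72 in 2 and 43 in 3. In EGFP, 51 were in 0 libraries, 91 in 1, 112 in 2 and 89, or 25.9%, in 3. Of regions in 3 WT libraries and 1, 2 or 3 D312A libraries, 42.4%, 60.8% and 90.1% were in 3 EGFP libraries. The lost regions were thus also the least complete of the 4 groups in EGFP, by value. For 10 lost regions all 3 R298P and all 3 EGFP libraries held the site, so that it was missing in D312A alone. These lay in PAQR7, IDE, PDZD8, CTDP1, GALM, DGKQ, PRR3, FZD3, NUP214 and ATP7A, which are named because they meet this count. FZD3, a Wnt receptor (chromosome 8, 28503022 to 28503034), was the only region of them also called with lists of equal length and with merging within 200 nt. The others failed at least 1 of these settings. A further 22 lost regions were in 0 R298P and 3 EGFP libraries, and 26 were in WT alone. Of the 31 gained regions, 24 were in at least 1 R298P library and 29 in at least 1 EGFP library, and none was in D312A alone.

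**Figure D4:**
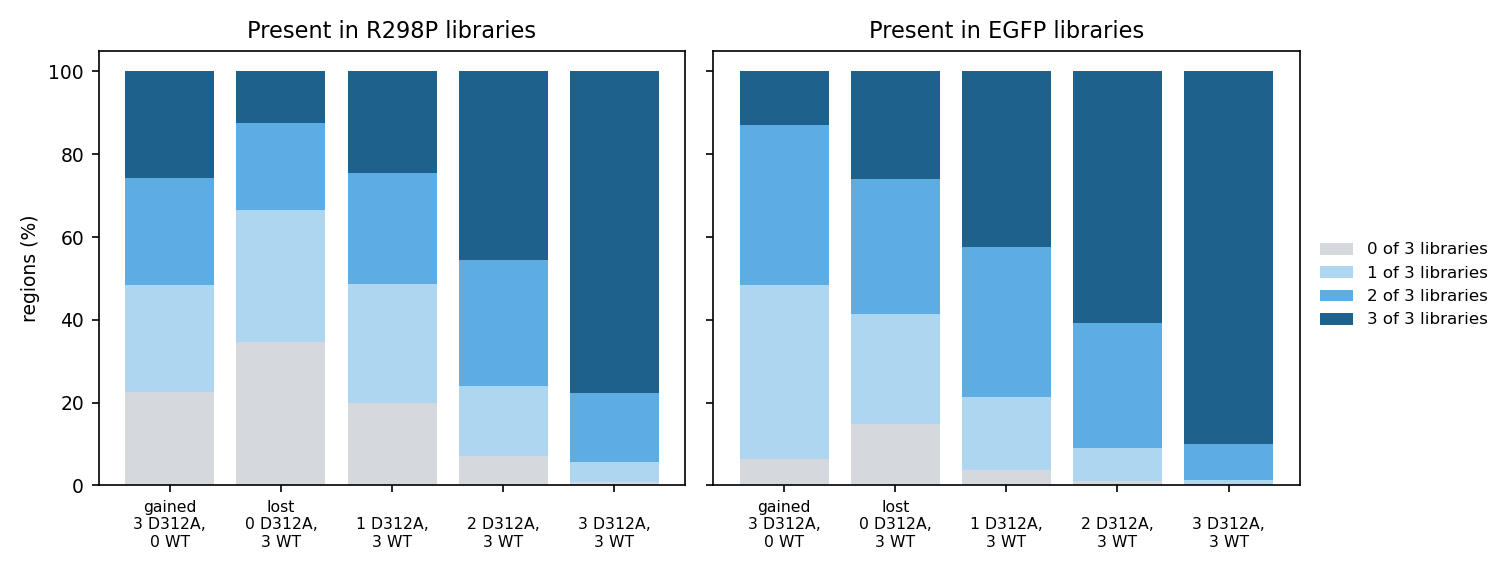
Percent of regions present in 0, 1, 2 or 3 R298P libraries (left) and EGFP libraries (right), for gained and lost regions and for regions in 3 WT libraries and 1, 2 or 3 D312A libraries. Lost regions were in 3 EGFP libraries in 25.9% and regions in all 6 libraries in 90.1%.

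Of the lost regions, 85.7% lay in the span of 1 protein-coding gene and 5.25% in that of 1 lncRNA gene, against 88.9% and 2.48% of regions in all 6 libraries and 81.8% and 4.896% of all merged regions. Within 1000 nt of the end of the gene span lay 39 of 268 lost regions with a known strand, or 14.6%, against 17.2% of regions in all 6 libraries and 14.3% of all merged regions. The start of the span differed more between the directions. Within 300 nt of it lay 4 of 28 gained regions, or 14.3%, and 8 of 268 lost regions, or 2.99%. Just outside the definition the shares were 14.4% for regions in 3 D312A libraries and 1 WT library and 18.9% for those in 2 D312A and 0 WT libraries, against 4.07% for those in 0 D312A and 2 WT libraries. Over all regions it was 7.26%, and over regions in 3 of 3 WT, 3 of 3 D312A and all 6 libraries 2.52%, 2.78% and 1.81%. Among called regions held with lists of equal length, 2 of 17 gained and 0 of 59 lost regions lay there. Regions held mainly by D312A thus lay near the start of their gene more often by count. The gained regions were few, and the difference was not tested.

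The overall likeness of libraries did not follow the lines. Averaged over both directions, pairs of D312A libraries shared 61.5% of their summits within 100 nt (SD 0.616 over 3 pairs), D312A and WT libraries shared 63.5% (SD 3.46 over 9 pairs) and WT libraries 65.3% (SD 2.74 over 3 pairs). The pair that shared most was D312A replicate 1 with WT replicate 1, at 70.9%. With lists of equal length the values were 60.3% within D312A, 62.9% between the lines and 65.0% within WT. D312A libraries therefore resembled each other no more than they resembled WT, and pairs are not independent, since each library enters several of them.

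At the level of genes, 8965 genes held a summit in at least 1 of the 6 libraries. In 290 of them, or 3.23%, every D312A library held fewer summits than every WT library, and in 9, or 0.1%, every D312A library held more. The median difference over all genes was -0.33 summits, and the mean was lower in D312A for 5202 genes and higher for 1799. With lists of equal length, 89 genes (1.24% of 7164) held fewer and 44 (0.614%) held more, and 40 of the 290 and 5 of the 9 were among them. Of the 305 genes with a lost region, 147 kept summits in all 3 D312A libraries, 80 in some of them and 78 in 0. In 117 genes all summits were missing in D312A while every WT library held at least 1, and in 4 genes the reverse held.

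PPARA, a nuclear receptor that controls fatty acid oxidation in liver, held 5, 1 and 6 summits in D312A replicates 1, 2 and 3, against 11, 7 and 9 in WT, the largest difference of means at -5.00. Its lowest value was in the shortest list, and with lists of equal length the groups overlapped, at 4, 1 and 6 in D312A and 6, 6 and 6 in WT. ZNF318 held 5, 2 and 5 in D312A and 8, 7 and 9 in WT, and stayed apart with lists of equal length, at 5, 2 and 3 in D312A and 6, 6 and 6 in WT. CENPF, a kinetochore protein, held 2, 1 and 3 in D312A and 5, 6 and 7 in WT. In CENPF the R298P libraries held 2, 0 and 1 and the EGFP libraries 1, 5 and 4, so the EGFP control itself ranged as widely as the gap between D312A and WT. MKI67, the proliferation marker, held 10, 7 and 9 in D312A and 12, 12 and 13 in WT. IRS1, the docking protein of the insulin receptor, held 7, 6 and 6 in D312A and 9, 9 and 12 in WT. HNF4A, a master transcription factor of hepatocytes, held 7, 6 and 5 in D312A and 11, 9 and 9 in WT. CENPF, MKI67, IRS1 and HNF4A overlapped between the lines with lists of equal length.

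ARHGEF17 held 8, 6 and 8 in D312A and 10, 11 and 12 in WT, and ZKSCAN1, a zinc finger protein, held 6, 5 and 8 in D312A and 9, 10 and 11 in WT. These remained apart with lists of equal length. EPPK1 held 8, 7 and 9 in D312A and 12, 11 and 12 in WT, and PIGZ held 5, 3 and 3 in D312A and 7, 6 and 8 in WT, and both overlapped at equal length. In the other direction the differences were small. MGAT4A, an enzyme of N-glycan branching, held 4, 3 and 3 summits in D312A and 2, 2 and 2 in WT, and TTC28-AS1 held 2, 2 and 2 in D312A and 1, 0 and 1 in WT, although reads of an antisense gene and its partner cannot be told apart without strand. CDCA4, DCUN1D2 and MOCS3 each held 2 summits in every D312A library and 1 in every WT library. NR1H2, the oxysterol receptor LXR beta, APOBEC3C, LINC02334 and LOC105374264 held 1 in every D312A library and 0 in every WT library. With lists of equal length MGAT4A, CDCA4, DCUN1D2, MOCS3 and LINC02334 stayed apart. APOBEC3C held 0 in all R298P and EGFP libraries too.

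**Figure D5:**
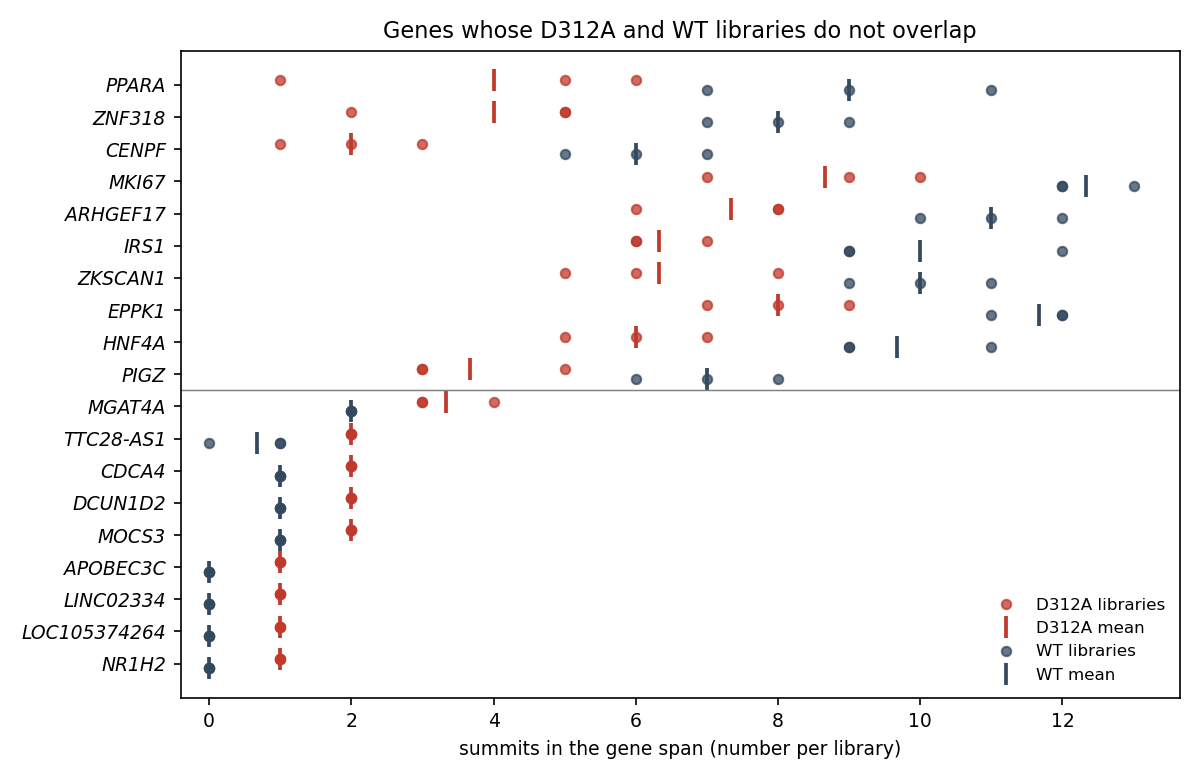
Summits per library in the spans of the 10 genes with the largest decrease (above the line) and the 9 genes with an increase (below the line) among genes whose groups do not overlap, with D312A libraries in red, WT libraries in dark blue, points for libraries and ticks for means of 3. PPARA held 5, 1 and 6 summits in D312A and 11, 7 and 9 in WT.

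A fit over the 1917 genes with a mean of at least 2 summits (limma on log2 of summits plus 1, Benjamini-Hochberg adjustment) called 6 genes, 0.313% of those tested, all with fewer summits in D312A. MPRIP, which binds myosin phosphatase, held 1 summit in every D312A and 3 in every WT library (log2 fold change -1, SE 0.0318, limma adjusted p = 0.00205). FUT6, a fucosyltransferase of the liver, held 2 in every D312A and 4 in every WT library (log2 fold change -0.74, limma adjusted p = 0.00738), and REST, the repressor of neuronal genes, held 3 in every D312A and 5 in every WT library (log2 fold change -0.58, limma adjusted p = 0.0247). CBX2, a Polycomb protein, SLC12A7, a potassium chloride cotransporter, and USP36, a nucleolar deubiquitinase, each held 2 in every D312A and 3 in every WT library (log2 fold change -0.42, limma adjusted p = 0.0247). In all 6 the number did not vary within a line, so the calls rest on small whole numbers that were equal in 3 libraries of each line, with no spread of their own. With lists of equal length REST and CBX2 stayed apart, while MPRIP, FUT6, SLC12A7 and USP36 overlapped between the lines. USP36 then held 2, 2 and 2 in D312A and 2, 0 and 3 in WT. With the replicate number as a block limma called 0 genes (lowest adjusted p = 0.288), with 215 genes at an unadjusted p under 0.05. With summits expressed per 10000 of the list it called 0 as well, with 96 at an unadjusted p under 0.05. With lists of equal length it called 6 genes, of which 3 had fewer summits in D312A. At an unadjusted p under 0.05 the unblocked fit of the lists as deposited had 145 genes with fewer and 3 with more summits. Its median log2 difference over all tested genes was -0.19. For PPARA the log2 fold change was -1.17 (SE 0.546, limma adjusted p = 0.519) and for CENPF -1.27 (SE 0.291, limma adjusted p = 0.377).

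The writer complex and the proteins that read or erase the mark held 3 lost and 0 gained regions. METTL14, the expressed gene, held 9, 9 and 3 summits over its span in D312A and 11, 9 and 7 in WT, with 1, 1 and 1 in EGFP, below every library of the other lines (log2 fold change of D312A over WT -0.42, SE 0.435, limma adjusted p = 0.729). D312A replicate 3, with 3, was also, of the 6, the library with fewest summits in abundant liver transcripts. METTL3 held 0, 0 and 1 in D312A and 1, 1 and 1 in WT, and WTAP 3, 4 and 3 in D312A and 3, 3 and 3 in WT. VIRMA held 1, 1 and 1 in D312A and 2, 3 and 5 in WT, without overlap and also apart with lists of equal length. Its lost region (chromosome 8, 94488621 to 94488639) was present in 0 R298P and 2 EGFP libraries, and the nearest D312A summit lay 30551 nt away. Of 7 writer genes with summits 1 held a lost region, and of 14 readers and erasers 2 did, FTO and PRRC2A, with 3 lost among 38 regions that these lists held in 3 of 3 WT libraries where all genes lost 4.42%. FTO held 0, 0 and 0 summits in D312A and 1, 1 and 1 in WT, and PRRC2A, an m6A-binding protein, held 1, 2 and 3 in D312A and 6, 5 and 4 in WT.

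Transcription factors of the liver came next. HNF4A, FOXA2, a pioneer factor, CEBPB and ONECUT1 lost 5 of the 34 regions that the list of 17 held in 3 of 3 WT libraries, where 4.42% of all such regions were lost, and 0 were gained. For FOXA2, where 2 regions on chromosome 20 were lost (starting at 22582770 and 22583015), the count was 2, 1 and 2 summits in D312A and 4, 4 and 4 in WT. CEBPB held 3, 2 and 3 in D312A and 4, 4 and 4 in WT. The D312A summits nearest to these 5 regions lay between 124 and 369 nt away, so each of these genes kept a site close by. In the list, 3 of 17 genes did not overlap between the lines, all lower in D312A, where 3.23% of all genes were. With lists of equal length all 3 overlapped, and the mean of CEBPB was 1.33 in D312A and 1 in WT. The median difference was -0.67 summits against -0.33 over all genes. It was -0.67 also for the writer complex, readers and erasers, histone methyltransferases and long noncoding RNAs. Among 18 nuclear receptors of liver metabolism with summits, PPARA, NR1I2 and RXRB lost 4 of 26 regions, against the same 4.42%, and NR1H2 gained 1, where 0.582% of all regions in 3 of 3 D312A libraries were gained. NR1I2, the xenobiotic receptor PXR, held 0, 0 and 0 summits in D312A and 1, 3 and 3 in WT, with 0, 0 and 1 in R298P and 1, 1 and 1 in EGFP. RXRB, a partner of such receptors, held 0, 0 and 0 in D312A and 1, 1 and 1 in WT. The NR1H2 region (chromosome 19, 50376514 to 50376541) had no WT summit within 7846 nt. Its values were 5.64, 7.37 and 16.3 in D312A replicates 1, 2 and 3, where the lowest value in replicate 1 was 5.00. It was not called with lists of equal length.

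Genes that restrain or carry growth factor signals also held lost regions. Among inhibitors of receptor tyrosine kinase signalling SPRY4 lost 3 regions, the most of any gene, and SPRY2 and DUSP7, a phosphatase of ERK, lost 1 each, in sum 5 of 28 regions in 3 of 3 WT libraries, where 4.42% of all such regions were lost. SPRY4 held 3, 2 and 3 summits in D312A and 5, 6 and 6 in WT, with 3, 2 and 4 in R298P and 4, 7 and 7 in EGFP. A pair of its lost regions (chromosome 5, 142311298 to 142311324 and 142311531 to 142311533) was in 0 R298P libraries, and the other (142314937 to 142314953) in 2. DUSP7 held 0, 0 and 0 in D312A and 2, 1 and 1 in WT, and its lost region had no D312A summit within 24873 nt. In insulin, IGF, AKT and mTOR signalling, INSR, IRS1, PIK3R1, a regulatory subunit of PI3-kinase, and RICTOR, the scaffold of mTORC2, lost 5 of 42 regions, against the same 4.42%. PIK3R1 held 2, 1 and 2 in D312A and 3, 4 and 4 in WT, and RICTOR 1, 0 and 1 in D312A and 2, 2 and 2 in WT. For IRS1 the lost region at 226786188 to 226786193 on chromosome 2 had no D312A summit within 8975 nt, while the other had 1 at 201 nt. The median difference of these lists was -0.33 and -0.50 summits.

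Chromatin regulators, deubiquitinases and decay factors are read against the 4.42% of all regions in 3 of 3 WT libraries that were lost. Histone methyltransferases lost 3 of 48 regions, in KMT2D, KMT2E and PRDM2, and gained 1, in KMT2C. KMT2D held 10, 7 and 13 summits in D312A and 13, 12 and 16 in WT, which overlap, while NSD2 held 1, 2 and 3 in D312A and 5, 5 and 4 in WT. Histone acetyltransferases and bromodomain proteins lost 1 of 37, in KAT6B, and genes of cohesin, chromatin remodelling and Polycomb lost 1 of 68, in ASXL1. Ubiquitin-specific proteases lost 1 of 40, in USP22. CHD7, a chromatin remodeller, held 7, 5 and 8 summits in D312A and 10, 10 and 9 in WT without a lost region. In mRNA decay, TOB2, an antiproliferative adaptor of deadenylation, and EDC3, an enhancer of decapping, lost 2 of 16, and EDC3 held 0, 0 and 0 summits in D312A and 1, 1 and 1 in WT.

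In the other lists 1 member or a pair lost a region: BAAT, which conjugates bile acids, NPC1L1, the sterol transporter, ACACB, an acetyl-CoA carboxylase, BCL9L of the Wnt pathway, NF2 and FAT4 of the Hippo pathway, KLF7, CENPF and SMURF1, a ubiquitin ligase of TGF-beta receptors. NF2, the tumour suppressor merlin, held 0, 0 and 0 summits in D312A and 1, 1 and 1 in WT, with 1, 1 and 1 in R298P. SMURF1 held 0, 0 and 0 in D312A and 2, 1 and 1 in WT, and BAAT 1, 1 and 1 in D312A and 2, 2 and 2 in WT. KLF7, a zinc finger factor, held 1, 1 and 1 in D312A and 5, 2 and 2 in WT, and its relative KLF3 held 0, 0 and 1 in D312A and 2, 2 and 2 in WT. SMAD5, a mediator of BMP signals, held 1, 1 and 1 in D312A and 2, 2 and 2 in WT. MGA, a MAX partner of the MYC network, held 6, 3 and 7 in D312A and 8, 8 and 9 in WT. Most of these differences were of 1 or 2 summits per library. Lost regions numbered 0 among 8 regions of suppressors of cytokine signalling in 3 of 3 WT libraries, 0 of 13 of the MYC network, 0 of 13 of SR splicing factors, 0 of 11 of p53 targets, 0 of 22 of Notch signalling, 0 of 17 of inflammation and 0 of 12 of long noncoding RNAs. MYC held 1, 2 and 2 summits in D312A and 2, 2 and 2 in WT. Over all regions in 3 of 3 WT libraries the lost share was 4.42%. Among all list members whose lines did not overlap, VIRMA, FTO, DUSP7, NSD2 and CBX2 were the only ones that also stayed apart with lists of equal length. Of the 30 lists, 19 held a gene with a lost region and 3 a gene with a gained one, the unfolded protein response list through SEL1L.

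Markers of other cell types were also looked up. Of 12 markers of fibroblasts and stellate cells 1 held summits, of 12 of blood and macrophages 3, and of 9 of endothelium 2, with the sum per library and list between 0 and 3 in D312A and between 0 and 4 in WT. Of 7 cholangiocyte markers 4 held summits, with sums of 8, 7 and 3 in D312A and 11, 3 and 5 in WT. Of 11 hepatocyte markers 10 held summits, with sums of 79, 80 and 6 in D312A and 99, 34 and 31 in WT. These are counts of summits and not of RNA, and the input libraries, which measure RNA, were not used here. All libraries came from HepG2 lines, so the marker lists give no proportions of cell types.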

How the data were processed

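Immunoprecipitated m6A libraries of the D312A and WT lines, 3 each, were compared through their summit lists. Per the submitters' processing notes the tools included Trim Galore 0.4.4, STAR 2.7.9a and MACS2 2.1.2, with no role or order given. The authors deposited 1 summit list per library, in which the fifth column is a −log10 value that MACS2 writes for a p or q value. Which of these it is, and the read depth behind it, were not given in the sources used here. The lists carry no counts, so no interval on a summit can be given.

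Summits of the 6 lists within 100 nt were merged into regions. A summit was assigned to the only protein-coding gene, or else the only lncRNA gene, whose RefSeq span (GRCh38.p14) holds it, without regard to exons. Gained and lost regions, and genes whose groups do not overlap, are counts without a test. List lengths were compared with an exact permutation test. Numbers of summits per gene were tested with limma 3.58.1 in R 4.3.3 on log2(summits + 1), over genes with a mean of at least 2. In a check on simulated data, 64.2% of genes changed 4-fold were recovered. The simulation used Poisson counts with no difference in list length, raised or lowered in chosen genes. It therefore does not cover lists of unequal length or smaller changes. The labels call the replicates biological, and the tests compare them. limma also draws on the spread of other genes. For the 6 called genes, which had no spread within a line, its p-values rest on that alone.

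The text names the 10 gained and 15 lost regions of best mean rank, up to 10 genes with the largest difference in each direction among those whose groups do not overlap (9 were higher in D312A, and ties went to the gene with more summits in sum, then by symbol), and members of 30 gene lists with a gained or lost region or without overlap. The regions, lists and rules were chosen with earlier results of these data known. Other merging distances, list lengths, thresholds, fits and left-out libraries were tried as alternatives. Input libraries and 18 columns of a table of the whole series were not used here.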

Additional observations from a re-analysis of the deposited data

How the results depend on the processing

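The lower number of summits in D312A kept its direction in all 9 alternatives, between -3830 and -1824 with single libraries left out (exact permutation tests). Counts of regions and genes depended on the settings. Gained regions numbered 82 with lists of equal length, 59 with equal length and merging within 200 nt, 13 with merging within 200 nt alone, 8 without a WT summit within 500 nt, and 230 in replicates 2 and 3 alone, against 31. Lost regions numbered 132, 115, 189 (without a D312A summit within 500 nt) and 1484 in the same settings other than 200 nt alone, and 52 with the 5000 best summits, against 343. The gained share of changed regions was 8.29% with the lists as deposited and 38.3% with equal length. Genes with more summits in D312A numbered 44 with equal length, 32 with the 5000 best and 106 in replicates 2 and 3 alone, against 9. Genes with fewer numbered 89, 42 and 1064, against 290. With single libraries left out, the ranges were 68 (WT replicate 2) to 185 (D312A replicate 2) gained regions, 456 (D312A replicate 2) to 858 (WT replicate 1) lost regions, 24 to 90 genes with more, 360 to 658 genes with fewer and 12 to 32 genes called by limma. Fewer libraries make the requirement of presence in all of them easier to meet.

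The labels do not say whether the replicate numbers pair the samples, and the values were mixed. Same-numbered libraries correlated at 0.35, 0.024 and 0.37 in their deviations over 1917 genes. For D312A replicates 1 and 3 the same-numbered WT library was the best match. D312A replicate 2 correlated best with WT replicate 1, at 0.16. With the replicate number as a block, limma called 0 genes, with 215 at an unadjusted p under 0.05, against 6. It called 107 without the filter, 0 with a mean of at least 4 summits (47 at an unadjusted p under 0.05), 0 with summits per 10000 of the list (96), 3 with the 5000 best and 85 in replicates 2 and 3 alone. Of the 3 genes with the 5000 best, 0 had fewer summits in D312A. With lists of equal length it called 6, of which 3 had fewer. The cause was not tested. Scaling per 10000 moved the median log2 difference to 0.08, against -0.19, and the genes at an unadjusted p under 0.05 were then 53 lower and 43 higher in D312A, against 145 and 3.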
